A study of Danio rerio with 12 samples.

Results

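The genes described here are 40 zebrafish genes of fatty acid oxidation and of its control by peroxisome proliferator-activated receptors (PPARs). They were chosen by symbol, and each of the 40 symbols was found once among the 44667 genes and assembled loci of the deposited table. By role they comprise 2 acyl-CoA synthetases, 6 genes of the carnitine shuttle, 5 acyl-CoA dehydrogenases, and 3 genes of electron transfer flavoprotein and its oxidoreductase. A further 3 genes encode subunits of the trifunctional protein, 3 encode enzymes of later mitochondrial steps, and 3 encode isomerases and reductases. The rest are 7 peroxisomal genes, 6 genes of receptors and a coactivator, and 2 PPAR target genes outside oxidation.

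RNA was taken from whole larvae of wild type zebrafish, 4 days after fertilisation. The 12 libraries formed 4 groups of 3. Control larvae were untreated (replicates 2, 3 and 4), and PFOS20 larvae received 20 mg/L of perfluorooctane sulfonate, PFOS (replicates 2, 3 and 4). OBS20 larvae (replicates 1, 2 and 3) and OBS30 larvae (replicates 1, 3 and 4) received 20 and 30 mg/L of OBS, sodium p-perfluorous nonenoxybenzene sulfonate. PFOS is a fluorinated surfactant in which a perfluoroalkyl chain ends in a sulfonate, and OBS, which is used in its place, has a perfluoroalkenyl ether on a benzenesulfonate. The labels used here give neither the start and length of exposure nor the number of larvae behind a library. They do not state whether replicates came from different clutches, so the p-values below measure only the spread between these samples, which may be technical.

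Mitochondrial β-oxidation shortens fatty acids by repeated rounds of dehydrogenation, hydration, dehydrogenation and thiolysis, after an acyl-CoA synthetase has activated the fatty acid and the carnitine shuttle has carried it across the inner membrane. Peroxisomes run a parallel pathway for very long, branched and dicarboxylic fatty acids, in which an oxidase replaces the first dehydrogenase. PPARs are nuclear receptors that bind fatty acids and switch on many genes of both pathways, and in a zebrafish larva the fatty acids come mainly from the yolk.

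Values are TPM, transcript abundances scaled for transcript length and library size, so levels may be compared between genes. Changes are differences in mean log2(TPM + 1) ± standard error of the fit, a scale that understates changes of low genes. A gene was called at an adjusted p below 0.05 in limma after Benjamini-Hochberg adjustment over all 30674 genes and loci tested. In what follows, TPM values of a group are listed in the order of its replicate numbers. The depth behind the TPM values is unknown. Fewer cells of a type and less RNA per cell cannot be told apart in such bulk samples.

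OBS20 replicate 3 stood apart from the other 11 libraries, with a median of 1.27 TPM over all genes and loci against 1.57 to 2.33. It also held 23942 genes and loci at 1 TPM or more, against 25775 to 28432 in the others. Among calls on the oxidation and PPAR genes, 6 were gained and 1 was lost without it. Most of these calls, and some OBS20 values that turn sign, are given with and without it below. The median change of all genes tested was -0.13 in PFOS20 against control, and -0.0013 after median-of-ratios scaling, which turned 1947 higher and 3663 lower calls into 3507 and 3625. In OBS30 against OBS20 that median was 0.10, and 0.0043 after this scaling.

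Of the 40 genes, 39 were tested and 37 reached 1 TPM in all 12 libraries. The carnitine acetyltransferase gene crata was not tested, with at most 0.49 TPM in any library. The peroxisome division gene pex11a was tested only through OBS libraries, the sole ones in which it reached 1 TPM. In control larvae the highest levels were those of pdk2b (255 ± 31.1 TPM, SD, n = 3), acadm (181 ± 5.64), etfb (138 ± 6.46) and etfa (124 ± 1.26). Among the oxidation genes tested other than pex11a, acot8 (4.64 ± 0.531 TPM) and acox3 (4.92 ± 0.918) were the lowest.

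Against control, PFOS20 larvae had 9 of the 39 tested genes higher and 3 lower. Over all genes tested, 6.35% were called higher and 11.9% lower. The share of the 39 genes called higher, 23.1%, lay above the share of all genes and the share called lower, 7.69%, below it. All genes tested include many of low level. In a run of genes with a mean of at least 5 TPM over all libraries, 10.6% of all genes were higher and 18.5% lower. Leaving out any 1 control or PFOS20 library cut the 9 to 3 or 4, and leaving out OBS20 replicate 1 or OBS30 replicates 3 or 4 to 5 or 6. The share of all genes called higher was 3.67% to 5.09% in the former runs and 5.55% to 5.89% in the latter. After median-of-ratios scaling 11 of the 39 genes and 11.4% of all genes were higher, and 1 gene and 11.8% were lower. The genes that rose were the acyl-CoA synthetase gene acsl1b, the carnitine palmitoyltransferase genes cpt1ab and cpt1b, etfb, echs1, eci2, pparg, angptl4 and pdk2b, and those that fell were acadl, ehhadh and acaa1. The median change of the 39 genes was 0.10, beside -0.13 for all genes, and it was 0.23 after median-of-ratios scaling. The libraries of PFOS20 lay all above those of control for 15 genes (14.5% of all genes did so) and all below for 6 (28.7%).

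OBS20 larvae had 0 genes called higher than control by limma, against 0.681% of all genes, and 1 lower, ehhadh, against 0.805%. At an unadjusted p below 0.05, 1 gene was higher and 5 were lower, beside 1367 and 1851 of all 30674 genes tested. The OBS20 libraries lay all above control for 1 gene (5.63% of all genes) and all below for 6 (9.35%). OBS30 larvae had 3 of the 39 genes higher, pparg, angptl4 and pdk2b, against 4.73% of all genes. They had 6 lower, ehhadh, acaa1, acaa2, decr1, decr2 and slc25a20, a share of 15.4% against 3.7% of all genes. In the run at a mean of at least 5 TPM, which left out ehhadh and pparg, 8.33% of all genes were higher and 6.01% lower in OBS30. The median change of the 39 genes was -0.12 in OBS30, beside 0.021 for all genes, and -0.041 in OBS20, beside -0.084. The OBS20 medians turned, without OBS20 replicate 3, to 0.016 for the set and 0.067 for all genes, and after median-of-ratios scaling that of the set was 0.039. The OBS30 count of genes lower was 2 without OBS30 replicate 3 or 4, beside 2.31% and 2.01% of all genes. The OBS30 libraries lay all below control for 16 genes (15.3% of all genes) and all above for 6 (17.9%). The 6 genes above control include pex11a, which was tested only through OBS libraries and also enters the medians of the 39 genes. The 3 comparisons share the control libraries.

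**Figure D1:**
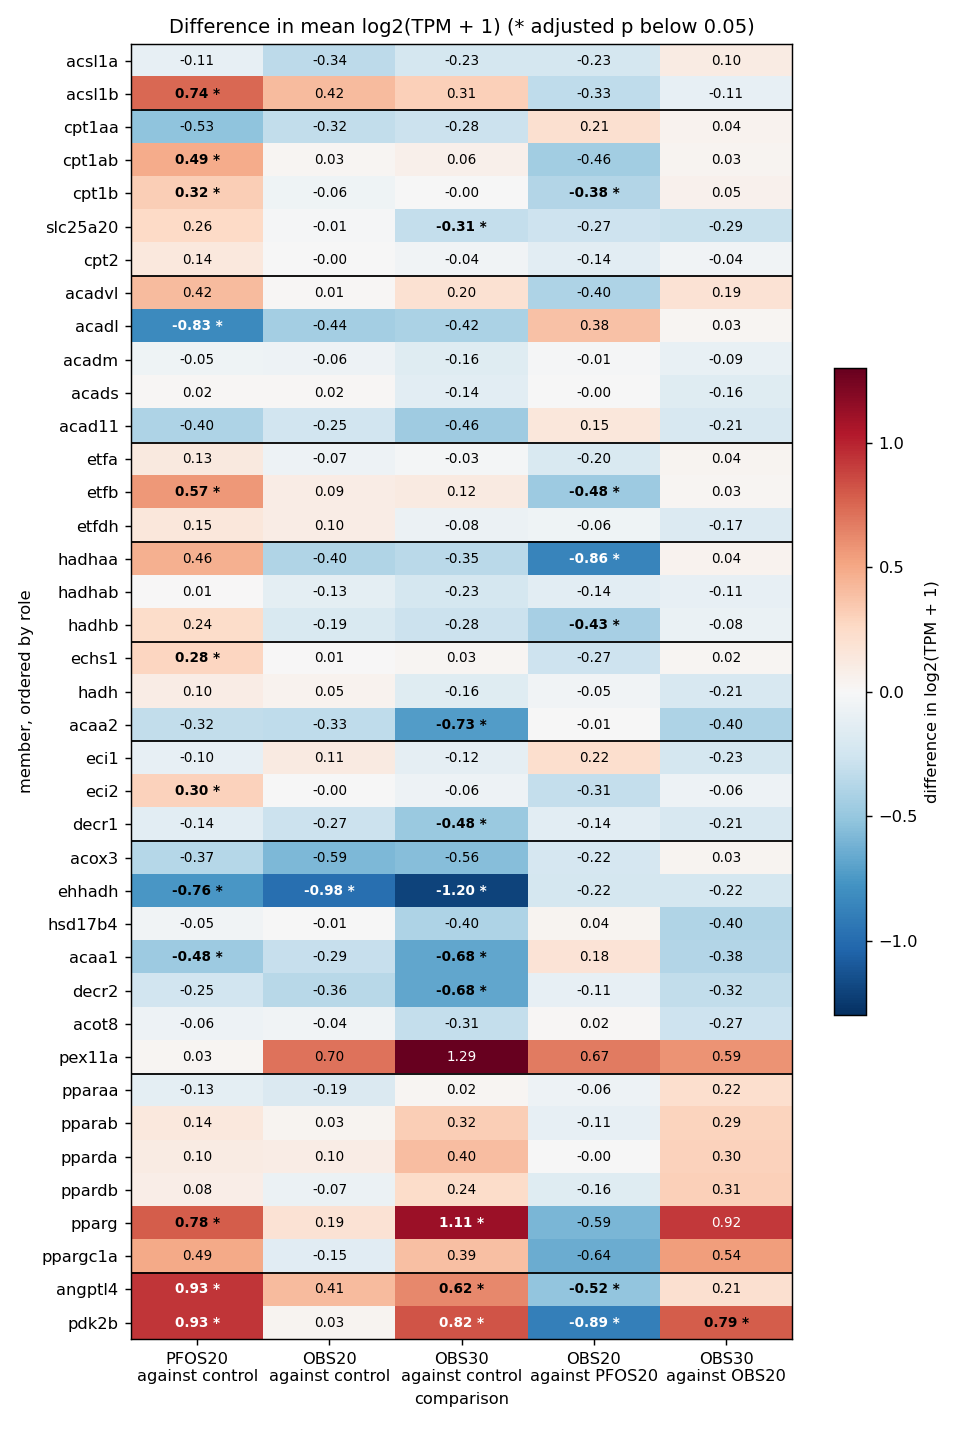
Differences in mean log2(TPM + 1) of the 39 genes tested (rows, ordered by role) in 5 comparisons (columns), with the value in each cell and a star where the adjusted p was below 0.05. In the PFOS20 column 9 genes are starred higher and 3 lower, in the OBS20 column against control only ehhadh is starred, and in the OBS30 column against control 3 are starred higher and 6 lower.

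Of the 7 peroxisomal genes, 2 fell in PFOS20, 1 in OBS20 and 3 in OBS30, and 0 rose, beside 11.9%, 0.805% and 3.7% of all genes lower. The gene ehhadh (ENSDARG00000070029) encodes the bifunctional enzyme of the hydratase and second dehydrogenase steps. Its TPM were 8.90, 7.78 and 8.21 in control, 4.32, 4.59 and 4.58 in PFOS20, 3.6, 3.39 and 4.16 in OBS20, and 3.37, 3.44 and 2.37 in OBS30. Every exposed library lay below every control library. The gene fell by 0.76 ± 0.14 in PFOS20 (adjusted p = 0.005), by 0.98 ± 0.14 in OBS20 (adjusted p = 0.0065) and by 1.20 ± 0.14 in OBS30 (adjusted p = 4.7e-04), and it was the only one of the 39 genes called in all 3 exposures. Without OBS20 replicate 3 the OBS20 change was -1.05 ± 0.14 (adjusted p = 0.0076). The call in OBS20 was lost when only control and OBS20 libraries entered the fit, under quantile normalisation or median-of-ratios scaling, and with the replicate number as a block (highest adjusted p = 0.075). That in PFOS20 was lost under quantile normalisation (adjusted p = 0.052).

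The peroxisomal thiolase gene acaa1 (ENSDARG00000004687), whose product splits off acetyl-CoA and leaves a shortened acyl-CoA, had 20.6, 20.1 and 18.7 TPM in control, 12.5, 14.8 and 14.8 in PFOS20, 14.6, 18.2 and 15.3 in OBS20, and 13.2, 11.5 and 11.3 in OBS30. All exposed libraries were below all control libraries, those of OBS20 the least so. It fell by 0.68 ± 0.12 in OBS30 (adjusted p = 0.0056) and by 0.48 ± 0.12 in PFOS20 (adjusted p = 0.021), while the OBS20 change was -0.29 ± 0.12 (adjusted p = 0.4). The PFOS20 call was lost without control replicate 2, control replicate 3 or PFOS20 replicate 2 (adjusted p up to 0.075), and under quantile normalisation (adjusted p = 0.068) and after median-of-ratios scaling (change -0.32, adjusted p = 0.15). With the replicate number as a block, both calls were lost (adjusted p = 0.066 in OBS30).

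The peroxisomal 2,4-dienoyl-CoA reductase gene decr2, which prepares unsaturated fatty acids for oxidation, had 18.5, 10.5 and 17.7 TPM in control and 8.15, 10.01 and 9.15 in OBS30. Control replicate 3 was the low one of its group, close to the OBS30 libraries. The gene fell by 0.68 ± 0.19 in OBS30 (adjusted p = 0.049), and the call was lost when any library other than control replicate 3 or OBS20 replicate 3 was left out (adjusted p up to 0.18). It was also lost at a pseudocount of 0.1, without the filter on TPM, with the replicate number as a block and in a fit of only the 6 libraries (up to 0.22). In PFOS20 (12.02, 13.2 and 12.5 TPM) and OBS20 (10.9, 12.8 and 11.2 TPM) the libraries overlapped with control, with changes of -0.25 ± 0.19 and -0.36 ± 0.19.

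The other peroxisomal genes did not pass in these comparisons. The branched-chain acyl-CoA oxidase gene acox3 had 5.92, 4.71 and 4.12 TPM in control, 3.44, 3.39 and 3.79 in PFOS20, 3.09, 3.37 and 2.33 in OBS20, and 2.71, 3.27 and 3.01 in OBS30. All 9 exposed libraries lay below control, with changes of -0.37, -0.59 and -0.56 and adjusted p of 0.13, 0.13 and 0.057. Without OBS20 replicate 3, which enters the pooled spread, the OBS30 change of acox3 was -0.56 ± 0.13 (adjusted p = 0.022).

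The second bifunctional enzyme gene, hsd17b4, handles the branched-chain and bile acid substrates of the peroxisome. It had 26.0, 26.0 and 21.0 TPM in control, 24.9, 24.3 and 21.2 in PFOS20, 25.4, 23.6 and 23.3 in OBS20, and 20.3, 15.5 and 18.7 in OBS30. Only the OBS30 libraries lay apart from control, with a change of -0.40 ± 0.13 (adjusted p = 0.086), against -0.047 in PFOS20 and -0.0069 in OBS20. The ratio of ehhadh to hsd17b4 in TPM ran from 0.299 to 0.391 in control, 0.174 to 0.216 in PFOS20, 0.142 to 0.178 in OBS20 and 0.127 to 0.222 in OBS30. All 9 exposed libraries lay below control. In PFOS20 and OBS20, where hsd17b4 hardly changed, this ratio mainly repeats the fall of ehhadh and is no separate result.

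The thioesterase gene acot8 had 3.06 to 5.51 TPM over the 12 libraries and changes from -0.31 to -0.041 against control, the OBS20 value being 0.10 without OBS20 replicate 3. The gene pex11a, whose product drives peroxisome division in mammals and yeast, was barely detected in control. It had 0.26, 0.00 and 0.00 TPM in control, 0.34, 0.00 and 0.00 in PFOS20, 0.99, 1.74 and 0.00 in OBS20, and 0.45, 2.83 and 2.34 in OBS30. The OBS30 libraries were all above control, but the gene entered the test only through its OBS values, so no p is given.

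Summed over the 7 peroxisomal genes, control libraries had 74.0 to 84.7 TPM, PFOS20 62.0 to 63.6, OBS20 59.8 to 68.4 and OBS30 50.3 to 51.3. No exposed library reached the control range, and OBS30 lay below the other exposures. Summed over 12 hepatocyte markers, levels were 2692 to 3275 TPM in control, 1834 to 2074 in PFOS20, 2164 to 2194 in OBS20 and 1448 to 1838 in OBS30. Of the 12, 5, 7 and 9 fell, beside 11.9%, 0.805% and 3.7% of all genes, and 1, 0 and 1 rose. Single markers changed by -3.68 to 0.86 in PFOS20, -3.48 to -0.084 in OBS20 and -3.78 to 0.78 in OBS30. Against PFOS20, OBS20 had 5 markers lower and 2 higher, although its sum was higher. No marker of the list was at 0, and its part in the peroxisomal values was not tested.

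**Figure D2:**
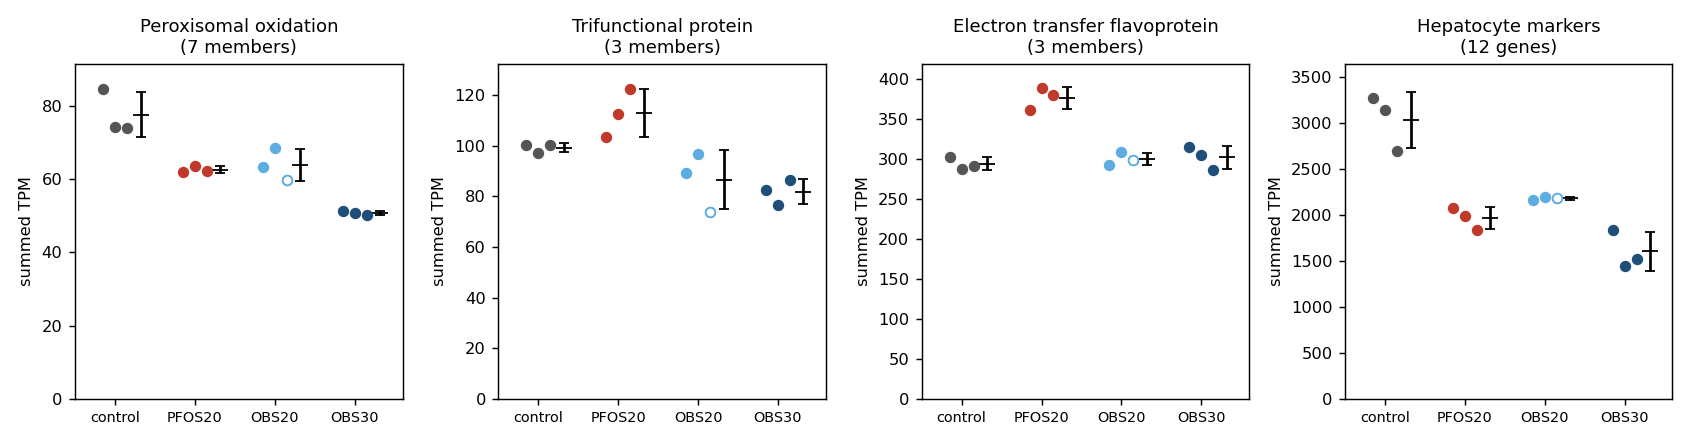
Summed TPM in each library (points) with the mean and SD of each group of 3 (bars), for the peroxisomal, trifunctional protein and electron transfer flavoprotein genes and for 12 hepatocyte markers, with OBS20 replicate 3 as an open point. The peroxisomal sum and the hepatocyte sum were below control in all 9 exposed libraries, whereas the flavoprotein sum was above control in the 3 PFOS20 libraries (361 to 388 TPM against 288 to 303).

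The 23 genes grouped here by role as mitochondrial include eci2, acad11 and crata, and the location of their proteins was not measured. Of these 23 genes, 22 were tested, and 5 rose and 1 fell in PFOS20, beside 6.35% and 11.9% of all genes. In OBS30 0 rose and 3 fell, beside 4.73% and 3.7%, and in OBS20 none was called in either direction. At an unadjusted p below 0.05, 0 were higher in OBS20 and 2 lower, beside 1367 and 1851 of all 30674 genes tested. The smallest adjusted p among the 22 mitochondrial genes was that of etfb (ENSDARG00000009250). It encodes the β subunit of the flavoprotein that takes electrons from all acyl-CoA dehydrogenases. It had 145, 133 and 136 TPM in control, 198, 212 and 204 in PFOS20, 141, 147 and 152 in OBS20, and 159, 149 and 142 in OBS30. Only the PFOS20 libraries stood clear of control, with a rise of 0.57 ± 0.071 (adjusted p = 6.2e-04) that was kept under every alternative run. The changes in OBS20 and OBS30 were 0.092 ± 0.071 and 0.12 ± 0.071. Transcripts of the mitochondrial genome made up 9.95% to 10.6% of TPM in PFOS20, against 7.28% to 8.23% in control and 7.42% to 8.86% in the OBS groups, and the part of this in the PFOS20 values was not tested.

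Its partners moved less. The α subunit gene etfa had 123, 124 and 125 TPM in control and 130, 137 and 140 in PFOS20, all above control, with a change of 0.13 ± 0.071 (adjusted p = 0.24). The oxidoreductase gene etfdh, which hands the electrons on to ubiquinone, had 35.2, 30.7 and 30.6 TPM in control and 32.8, 39.2 and 35.7 in PFOS20, which overlap, with a change of 0.15 ± 0.12. In the OBS groups the changes of etfa and etfdh against control lay between -0.078 and 0.096.

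Activation to acyl-CoA is shared by acsl1a and acsl1b. The gene acsl1b had 9.26, 14.7 and 7.86 TPM in control, 16.3, 15.2 and 22.9 in PFOS20, 12.6, 14.0 and 15.7 in OBS20, and 12.4, 12.6 and 14.0 in OBS30. All PFOS20 libraries were above control, although control replicate 3 came within 1 TPM of the lowest, and the OBS libraries overlapped with control. The rise in PFOS20 was 0.74 ± 0.21 (adjusted p = 0.034), and the call was lost without control replicates 2 or 4 or any PFOS20 library (adjusted p up to 0.12). A fit of only the 6 libraries and one with the replicate number as a block lost the call on acsl1b too. Its paralog acsl1a had 4.83, 7.85 and 8.38 TPM in control, 6.02, 5.73 and 7.22 in PFOS20, 6.25, 12.1 and 1.54 in OBS20, and 4.73, 5.09 and 7.55 in OBS30. These groups all overlapped, and the OBS20 libraries spread widest, with replicate 3 lowest.

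The carnitine shuttle begins with the carnitine palmitoyltransferases 1 of the outer membrane, which set the rate of entry. The gene cpt1ab had 26.3, 26.5 and 23.4 TPM in control, 32.4, 39.9 and 35.6 in PFOS20, 27.9, 30.8 and 20.1 in OBS20, and 26.8, 24.5 and 28.4 in OBS30. Its PFOS20 libraries were all higher than control, and it rose by 0.49 ± 0.15 (adjusted p = 0.046). The muscle-type gene cpt1b had 19.9, 20.6 and 20.7 TPM in control, 26.3, 25.5 and 25.6 in PFOS20, 20.8, 20.2 and 17.8 in OBS20, and 22.2, 18.7 and 20.2 in OBS30. Again only PFOS20 stood above, and cpt1b rose by 0.32 ± 0.099 (adjusted p = 0.044). Both calls were lost without any 1 of the control or PFOS20 libraries (adjusted p up to 0.16 for cpt1ab and 0.12 for cpt1b). They were also lost without OBS20 replicate 1, OBS30 replicate 3 or OBS30 replicate 4, and cpt1ab without OBS30 replicate 1 and cpt1b without OBS20 replicate 2. With the replicate number as a block both were lost, and that on cpt1ab also without the filter on TPM. With OBS20 replicate 3 left out, cpt1ab gave an adjusted p of 0.0071 and cpt1b one of 0.015.

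The paralog cpt1aa was not called in any comparison. It had 18.6, 19.2 and 19.5 TPM in control, 9.34, 14.2 and 16.3 in PFOS20, 18.4, 20.4 and 9.09 in OBS20, and 13.2, 17.5 and 16.4 in OBS30. The PFOS20 and OBS30 libraries lay below control, but the change in PFOS20 of -0.53 ± 0.27 did not pass (adjusted p = 0.21, and 0.052 without OBS20 replicate 3). The ratio of cpt1aa to cpt1ab was 0.709 to 0.834 in control, 0.288 to 0.457 in PFOS20, 0.452 to 0.663 in OBS20 and 0.493 to 0.715 in OBS30. The PFOS20 and OBS20 ratios were all below control, and those of OBS30 overlapped with it. Such a ratio does not depend on the scaling of a library. In PFOS20 it includes cpt1ab, a gene already called, and is no separate result.

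The translocase gene slc25a20, which exchanges acylcarnitine for carnitine across the inner membrane, had 55.1, 53.5 and 52.4 TPM in control, 68.0, 66.9 and 58.5 in PFOS20, 51.6, 53.8 and 54.2 in OBS20, and 45.7, 41.9 and 42.2 in OBS30. The PFOS20 libraries were all above control and the OBS30 libraries all below. It fell by 0.31 ± 0.084 in OBS30 (adjusted p = 0.049), a call lost when any library but PFOS20 replicate 4 or OBS20 replicate 3 was left out (adjusted p up to 0.16) and after median-of-ratios scaling (0.27). The change in PFOS20 was 0.26 ± 0.084 (adjusted p = 0.056, and 0.033 without OBS20 replicate 3). The inner membrane transferase gene cpt2 had 6.71 to 10.3 TPM over all libraries, with changes from -0.044 to 0.14 against control.

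The acyl-CoA dehydrogenases open each round of oxidation and differ in the chain length they accept. The long-chain gene acadl had 46.6, 30.3 and 35.7 TPM in control, 24.4, 23.8 and 14.5 in PFOS20, 27.8, 19.9 and 35.1 in OBS20, and 33.0, 26.0 and 24.1 in OBS30. The PFOS20 libraries were below control and those of the OBS groups overlapped with it, in OBS20 only through replicate 3. The gene fell by 0.83 ± 0.25 in PFOS20 (adjusted p = 0.043). Its OBS20 change was -0.44 ± 0.25 (adjusted p = 0.63), and -0.63 ± 0.26 without OBS20 replicate 3 (adjusted p = 0.32). The PFOS20 call was lost without any control or PFOS20 library, OBS20 replicate 1, or OBS30 replicates 3 or 4 (adjusted p up to 0.15). After median-of-ratios scaling it was lost too (change -0.66, adjusted p = 0.21). It was also lost under quantile normalisation, without the filter on TPM, with the replicate number as a block and in a fit of only the 6 libraries.

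The very-long-chain gene acadvl had 84.1, 78.0 and 73.7 TPM in control, 97.3, 104 and 114 in PFOS20, 87.8, 91.7 and 61.6 in OBS20, and 90.6, 89.8 and 90.9 in OBS30. The PFOS20 and OBS30 libraries were above control, and OBS20 replicate 3 was the lowest of all. The PFOS20 change of 0.42 ± 0.14 had an adjusted p of 0.057, and of 0.0041 without OBS20 replicate 3. The ratio of acadl to acadvl was 0.388 to 0.553 in control and 0.127 to 0.251 in PFOS20, with no overlap, while OBS20 (0.217 to 0.569) overlapped and OBS30 (0.265 to 0.364) lay below control. The OBS20 overlap came from replicate 3 (0.569), and replicates 1 and 2 (0.317 and 0.217) were below control.

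The medium-chain gene acadm, the most abundant dehydrogenase of the set, had 156 to 187 TPM over all libraries, with changes of -0.053 ± 0.070, -0.064 ± 0.070 and -0.16 ± 0.070 in PFOS20, OBS20 and OBS30. The 95% intervals of these changes lay within -0.31 and 0.10. The short-chain gene acads had 27.6 to 40.1 TPM and changes between -0.14 and 0.020. The gene acad11, another acyl-CoA dehydrogenase family member, had 2.94 to 7.47 TPM, with changes of -0.40, -0.25 and -0.46, none of which passed.

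The trifunctional protein carries out the last 3 steps for long chains. Its α subunit is encoded by hadhaa and hadhab in zebrafish. The gene hadhaa (ENSDARG00000057128) had 23.1, 20.7 and 24.7 TPM in control, 30.3, 31.3 and 33.7 in PFOS20, 17.7, 21.3 and 13.2 in OBS20, and 17.1, 15.9 and 20.0 in OBS30. PFOS20 lay above control and OBS30 below it, and OBS20 overlapped with control through replicate 2. Against control the changes were 0.46 ± 0.16 (adjusted p = 0.067, and 0.015 without OBS20 replicate 3), -0.40 ± 0.16 (adjusted p = 0.39) and -0.35 ± 0.16 (adjusted p = 0.24).

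The β subunit gene hadhb, the neighbour of hadhaa in the RefSeq annotation of the GRCz12tu assembly, had 21.9, 20.9 and 21.4 TPM in control, 23.2, 26.3 and 26.9 in PFOS20, 18.6, 19.2 and 18.1 in OBS20, and 18.6, 16.3 and 17.8 in OBS30. The PFOS20 libraries were all above control and those of both OBS groups all below, with changes of 0.24, -0.19 and -0.28 that did not pass. The second α subunit gene hadhab had 55.3, 55.5 and 54.0 TPM in control, 49.8, 55.0 and 61.8 in PFOS20, 53.1, 56.2 and 42.5 in OBS20, and 46.9, 44.5 and 48.5 in OBS30. Its PFOS20 libraries straddled control, with a change of 0.010 ± 0.12. The ratio of hadhaa to hadhab was 0.372 to 0.457 in control and 0.546 to 0.610 in PFOS20, without overlap. With hadhab changed by 0.010, this ratio mainly repeats the higher hadhaa values in PFOS20.

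Among the later steps, the short-chain enoyl-CoA hydratase gene echs1 had 79.8, 76.6 and 83.1 TPM in control and 87.8, 98.0 and 105 in PFOS20. In the OBS groups it had 80.9, 79.9 and 79.4 TPM (OBS20) and 82.0, 85.1 and 77.1 (OBS30), within or near the control range. It rose by 0.28 ± 0.084 in PFOS20 (adjusted p = 0.042). The call held without PFOS20 replicate 2 or OBS20 replicate 3 and was lost without any other library (adjusted p up to 0.14). It was also lost in a fit of only the 6 libraries and with the replicate number as a block.

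The mitochondrial thiolase gene acaa2, which ends each round, had 45.9, 57.3 and 46.5 TPM in control, 36.9, 41.6 and 40.1 in PFOS20, 41.5, 47.6 and 30.8 in OBS20, and 34.0, 29.1 and 26.3 in OBS30. PFOS20 and OBS30 lay below control, OBS30 the furthest. It fell by 0.73 ± 0.16 in OBS30 (adjusted p = 0.018), and the call was lost without control replicate 3 or OBS30 replicates 3 or 4 (adjusted p up to 0.081). The changes in PFOS20 and OBS20 were -0.32 ± 0.16 and -0.33 ± 0.16. The 3-hydroxyacyl-CoA dehydrogenase gene hadh had 52.1 to 72.5 TPM, with changes between -0.16 and 0.099.

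Unsaturated fatty acids need isomerases and a reductase. The isomerase gene eci2 had 45.0, 41.9 and 45.7 TPM in control, 55.1, 54.9 and 54.2 in PFOS20, 43.7, 47.8 and 41.1 in OBS20, and 45.2, 38.6 and 43.0 in OBS30. Only PFOS20 stood apart, above control, and eci2 rose by 0.30 ± 0.091 there (adjusted p = 0.041). The call was lost without any control or PFOS20 library, OBS20 replicate 1 or OBS30 replicate 4 (adjusted p up to 0.14). The isomerase gene eci1 had 30.5 to 42.4 TPM, with changes between -0.12 and 0.11.

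The mitochondrial 2,4-dienoyl-CoA reductase gene decr1 had 23.2, 18.6 and 19.0 TPM in control, 18.1, 17.7 and 19.1 in PFOS20, 15.6, 16.9 and 17.1 in OBS20, and 16.0, 12.4 and 14.3 in OBS30. Both OBS groups lay below control and PFOS20 overlapped with it. It fell by 0.48 ± 0.12 in OBS30 (adjusted p = 0.034). The call was lost without any control library, PFOS20 replicate 3, or OBS30 replicates 3 or 4 (adjusted p up to 0.14), and after median-of-ratios scaling (adjusted p = 0.11). It was also lost under quantile normalisation, with the replicate number as a block and in a fit of only the 6 libraries (up to 0.15).

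**Figure D3:**
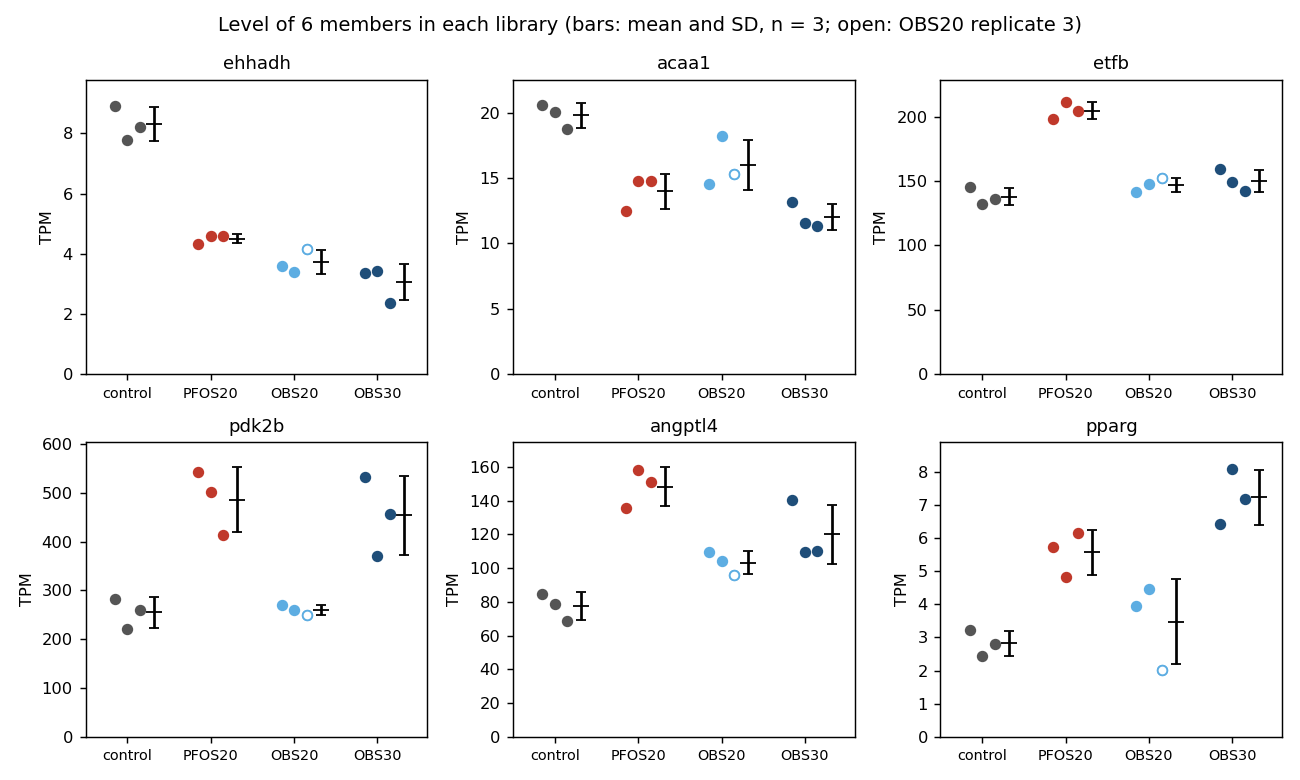
TPM of ehhadh, acaa1, etfb, pdk2b, angptl4 and pparg in each library (points) with the mean and SD of each group of 3 (bars), with OBS20 replicate 3 as an open point. The genes ehhadh and acaa1 were below control in all 9 exposed libraries, etfb was above control in PFOS20 (198 to 212 against 133 to 145 TPM), and pdk2b, angptl4 and pparg were above control in every PFOS20 and OBS30 library.

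Of the receptors, pparg (ENSDARG00000031848), the PPAR best known for fat storage in mammals, was the only one called. It had 3.21, 2.43 and 2.81 TPM in control, 5.72, 4.82 and 6.16 in PFOS20, 3.95, 4.46 and 2.03 in OBS20, and 6.42, 8.08 and 7.19 in OBS30. Every PFOS20 and OBS30 library was above every control library, while in OBS20 replicate 3 was below control and the other replicates above. It rose by 1.11 ± 0.21 in OBS30 (adjusted p = 0.0085), a call kept under each of the 20 alternatives in which pparg was tested. A mean of at least 5 TPM left pparg out. In PFOS20 it rose by 0.78 ± 0.21 (adjusted p = 0.027), a call lost without any 1 control or PFOS20 library (adjusted p up to 0.093). The OBS20 change was 0.19 ± 0.21 with replicate 3 and 0.45 ± 0.15 without it (adjusted p = 0.2).

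The gene pparaa encodes a PPARα, the form that drives fatty acid oxidation in mammalian liver. It had 3.83, 3.98 and 3.13 TPM in control, 3.37, 2.99 and 3.34 in PFOS20, 3.06, 3.66 and 2.52 in OBS20, and 3.37, 3.87 and 3.91 in OBS30. All groups overlapped, and the changes were -0.13, -0.19 and 0.024, each ± 0.15. Its paralog pparab was low, with 0.22 to 2.17 TPM and changes between 0.030 and 0.32.

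The PPARδ genes are pparda and ppardb, receptors of broad expression in mammals. The gene pparda had 3.30, 3.21 and 2.98 TPM in control and 3.77, 5.04 and 4.80 in OBS30, without overlap, but its change of 0.40 ± 0.31 did not pass (adjusted p = 0.52, and 0.18 without OBS20 replicate 3). The gene ppardb, the most abundant receptor of the set in control (14.9 ± 1.26 TPM, SD, n = 3), had changes of 0.082, -0.075 and 0.24, each ± 0.25, the OBS20 value being 0.29 ± 0.12 without OBS20 replicate 3. The coactivator gene ppargc1a, which promotes mitochondrial oxidation in mammals, had 6.03, 5.79 and 4.31 TPM in control, 7.35, 7.71 and 8.65 in PFOS20, 7.73, 9.39 and 1.04 in OBS20, and 5.18, 7.98 and 9.23 in OBS30. The PFOS20 libraries were all above control, and the change of 0.49 ± 0.49 had an adjusted p of 0.53, and of 0.084 without OBS20 replicate 3.

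Both PPAR targets outside oxidation rose in PFOS20 and OBS30. The gene angptl4 (ENSDARG00000035859), whose product inhibits lipoprotein lipase, had 84.7, 78.9 and 68.7 TPM in control, 135, 158 and 151 in PFOS20, 109, 104 and 96.2 in OBS20, and 140, 110 and 110 in OBS30. All exposed libraries lay above all control libraries. It rose by 0.93 ± 0.12 in PFOS20 (adjusted p = 6.9e-04) and by 0.62 ± 0.12 in OBS30 (adjusted p = 0.0084), and the OBS20 change was 0.41 ± 0.12 (adjusted p = 0.16, and 0.13 without replicate 3).

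The gene pdk2b (ENSDARG00000059054) encodes a pyruvate dehydrogenase kinase, an enzyme that shuts off glucose carbon at pyruvate dehydrogenase. It had 283, 222 and 260 TPM in control, 543, 502 and 413 in PFOS20, 270, 259 and 250 in OBS20, and 533, 371 and 458 in OBS30. The PFOS20 and OBS30 libraries were far above control, and those of OBS20 lay within its range. It rose by 0.93 ± 0.14 in PFOS20 (adjusted p = 0.0018) and by 0.82 ± 0.14 in OBS30 (adjusted p = 0.0048), with an OBS20 change of 0.035 ± 0.14. The OBS30 calls of angptl4 and pdk2b were lost after median-of-ratios scaling, at changes of 0.59 (adjusted p = 0.051) and 0.79 (adjusted p = 0.052).

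At the matched dose of 20 mg/L, the compounds were compared directly, over 39 genes with p-values adjusted over all genes tested. OBS20 larvae had 0 of these genes higher than PFOS20 larvae, against 5.85% of all genes, and 6 lower, against 3.92%. The 6 were pdk2b, hadhaa, angptl4, etfb, hadhb and cpt1b. None was higher at an unadjusted p below 0.05 either, and 13 were lower. Of all 30674 genes and loci tested, 4394 were higher and 3011 lower at that p. In the run at a mean of at least 5 TPM, 11.7% of all genes were called higher and 7.07% lower. With OBS20 replicate 3 left out, 0 of the 39 genes and 16.6% of all genes were higher, and 7 and 4.51% lower. The median difference of the 39 genes was -0.14, beside 0.045 for all genes (-0.045 and 0.19 without that library), and OBS20 libraries were all below PFOS20 for 16 genes (10.9% of all genes) and all above for 1 (12.4%).

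The difference between the compounds was greatest for pdk2b, which was lower in OBS20 by -0.89 ± 0.14 (adjusted p = 0.0037, and -0.86 ± 0.16 without OBS20 replicate 3). For hadhaa it was -0.86 ± 0.16 (adjusted p = 0.0075), and -0.68 ± 0.13 without OBS20 replicate 3 (adjusted p = 0.0069). For etfb it was -0.48 ± 0.071 (adjusted p = 0.0027, and 0.0031 without that library), and the call was lost after median-of-ratios scaling (adjusted p = 0.051). These 3 calls held with any 1 library left out, and that of hadhaa was lost in a fit of only the 6 libraries (adjusted p = 0.077).

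The remaining 3 differences were smaller. The gene angptl4 was lower by -0.52 ± 0.12 (adjusted p = 0.021), a call lost without PFOS20 replicate 3 or OBS20 replicate 2 (adjusted p up to 0.09). The gene hadhb was lower by -0.43 ± 0.097 (adjusted p = 0.019), a call lost without PFOS20 replicate 3 or OBS20 replicate 1 (up to 0.084). For cpt1b the difference was -0.38 ± 0.099 (adjusted p = 0.034). That call was lost without any control or PFOS20 library, OBS20 replicates 1 or 2, or OBS30 replicate 4 (up to 0.1). It was also lost after median-of-ratios scaling (adjusted p = 0.053). In a fit of only the 6 libraries, the calls on angptl4, hadhb and cpt1b were all lost. With the replicate number as a block, those on hadhb and cpt1b were lost. The highest adjusted p over all alternatives was 0.09 for angptl4, 0.14 for hadhb and 0.18 for cpt1b.

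The 33 genes not called include pex11a, which was tested only through OBS libraries. Of the 33, 29 had a 95% interval of the difference within 1 log2 unit of 0 and 4 reached it. The peroxisomal genes belong to the 33, with ehhadh at -0.22 (95% interval -0.54 to 0.09) and acaa1 at 0.18 (-0.08 to 0.45). For pparg the difference was -0.59 (-1.06 to -0.12, adjusted p = 0.11), and for cpt1ab -0.46 (-0.79 to -0.12, adjusted p = 0.085). Without OBS20 replicate 3, these were -0.33 ± 0.15 and -0.28 ± 0.11, and slc25a20 passed at -0.28 ± 0.09 (adjusted p = 0.044). Of the genes that reached 1 log2 unit, ppargc1a had -0.64 (-1.72 to 0.44) and acsl1a -0.23 (-1.26 to 0.80). Both turned sign without OBS20 replicate 3, to 0.10 ± 0.21 for ppargc1a and 0.42 ± 0.29 for acsl1a.

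**Figure D4:**
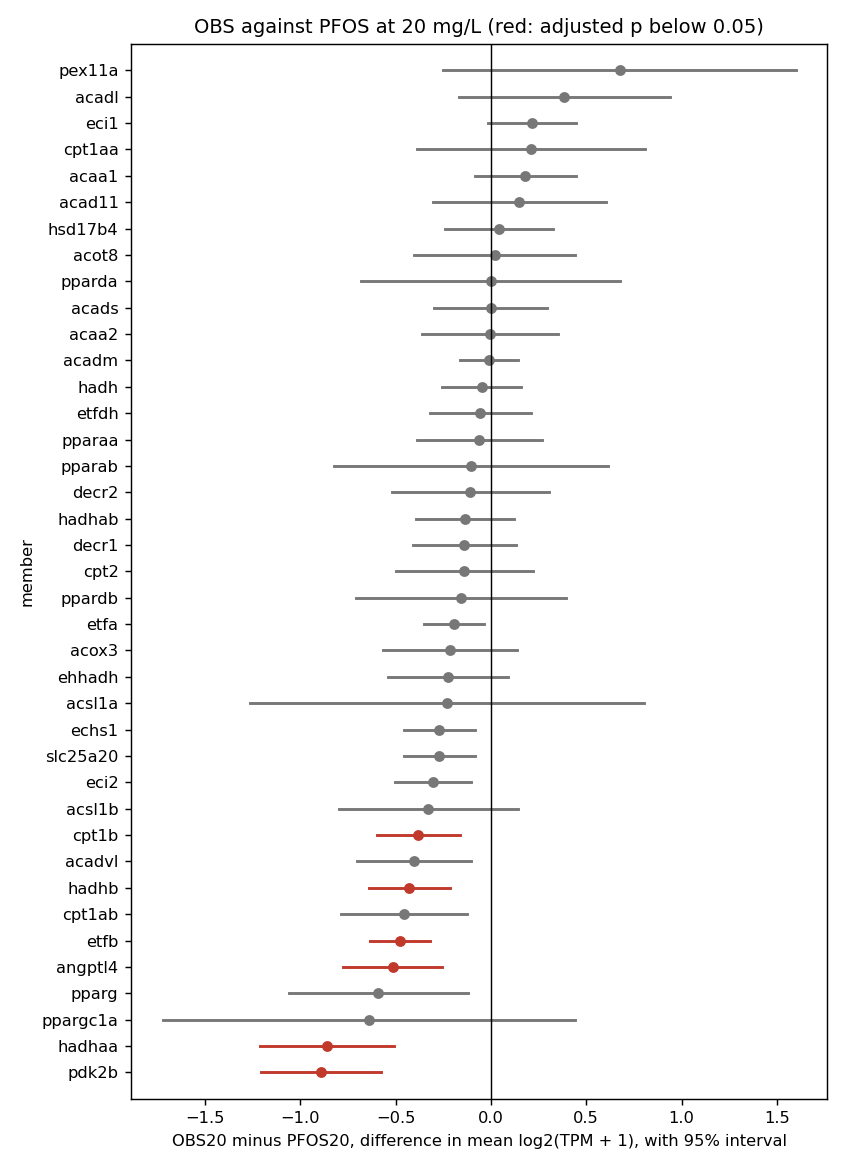
Difference in mean log2(TPM + 1) of OBS20 minus PFOS20 (points) with its 95% interval (lines) for the 39 genes tested, sorted by the difference, with genes called at an adjusted p below 0.05 in red. The 6 called genes lie below 0, from -0.89 for pdk2b to -0.38 for cpt1b, and the interval of ehhadh covers 0.

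Between the OBS doses, 1 gene was higher at 30 than at 20 mg/L, against 1.11% of all genes, and 0 were lower, against 0.466%. This gene was pdk2b, at 0.79 ± 0.14 (adjusted p = 0.023), and all its OBS30 libraries were above all OBS20 libraries. The call was lost without any 1 OBS20 library or OBS30 replicates 1 or 4 (adjusted p up to 0.093) and after median-of-ratios scaling (0.19). It was also lost in a fit of only the 6 libraries. The receptor gene pparg had a difference of 0.92 ± 0.21 (adjusted p = 0.065), again without overlap. OBS20 replicate 3 was the lowest of its group for pparg (2.03 TPM, beside 3.95 and 4.46), which widens this difference. At an unadjusted p below 0.05, 2 genes were higher and 5 lower at the higher dose, beside 2716 and 1315 of all 30674 genes tested. The median difference of the 39 genes was 0.022, beside 0.10 for all genes, and it was -0.11 after median-of-ratios scaling. These medians were -0.11 and -0.046 without OBS20 replicate 3.

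PFOS20 and OBS30 differ in compound and in dose and were not tested against each other. Side by side against control, both had pparg (0.78 and 1.11), angptl4 (0.93 and 0.62) and pdk2b (0.93 and 0.82) called higher and ehhadh (-0.76 and -1.20) and acaa1 (-0.48 and -0.68) called lower. For etfb the changes were 0.57 in PFOS20 and 0.12 in OBS30, for slc25a20 0.26 and -0.31, and for acaa2 -0.32 and -0.73. The ratio of etfb to ehhadh was 16.3 to 17.0 in control, 44.6 to 46.2 in PFOS20, 36.6 to 43.5 in OBS20 and 43.3 to 59.9 in OBS30. All 9 exposed libraries lay above control, but this ratio joins genes already called and is no separate result. In OBS20 and OBS30, where etfb changed by 0.092 and 0.12, it mainly repeats the fall of ehhadh.

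Of 105 further genes of fatty acid handling, 95 were tested. In PFOS20 5 rose and 10 fell, shares of 5.26% and 10.5% near the 6.35% and 11.9% of all genes. In OBS20 0 rose and 4 fell (4.21%, beside 0.805% of all genes), and in OBS30 5 rose and 13 fell (5.26% and 13.7%, beside 4.73% and 3.7%). The counts without OBS20 replicate 3 were 12 and 17 in PFOS20, 0 and 1 in OBS20, and 10 and 15 in OBS30. The shares of all genes called higher and lower were then 9.22% and 19.2%, 0.985% and 0.662%, and 7.62% and 5.3%. At an unadjusted p below 0.05, 2 were higher in OBS20 and 11 lower, beside 1367 and 1851 of all 30674 genes tested. The lipoprotein lipase gene lpl, which frees fatty acids from lipoproteins, had 20.1, 19.0 and 20.7 TPM in control, 43.4, 59.8 and 54.3 in PFOS20, 21.3, 24.7 and 16.6 in OBS20, and 29.1, 28.6 and 31.9 in OBS30. PFOS20 stood highest and OBS30 next, both clear of control. It rose by 1.34 ± 0.15 in PFOS20 (adjusted p = 3.5e-04), and by 0.56 ± 0.15 in OBS30 (adjusted p = 0.046), a call lost without any control library, PFOS20 replicates 3 or 4, OBS20 replicate 1 or any OBS30 library (up to 0.16). The OBS30 call was also lost without the filter on TPM and with the replicate number as a block (up to 0.18).

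The triglyceride lipase gene pnpla2, which starts the breakdown of lipid droplets, had 5.73, 4.47 and 5.72 TPM in control and 11.97, 13.7 and 9.17 in PFOS20. It rose by 0.99 ± 0.17 in PFOS20 (adjusted p = 0.003) and differed by -1.22 ± 0.17 between OBS20 and PFOS20 (adjusted p = 0.0017, and 0.0038 without OBS20 replicate 3). The synthetase gene acsl4b, which prefers polyunsaturated fatty acids in mammals, had 10.4, 9.81 and 9.13 TPM in control, 18.3, 25.7 and 19.6 in PFOS20, 9.04, 9.97 and 6.42 in OBS20, and 17.2, 16.0 and 15.0 in OBS30. It rose by 1.03 ± 0.17 in PFOS20 (adjusted p = 0.0024), and its rise of 0.66 ± 0.17 in OBS30 (adjusted p = 0.034) was lost without any 1 control or OBS30 library (up to 0.12). The OBS20 libraries overlapped with control in both genes.

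Of 17 genes of fatty acid uptake and binding tested, 2 rose and 4 fell in PFOS20 (11.8% and 23.5%, beside 6.35% and 11.9% of all genes). In OBS20 0 rose and 1 fell (5.88%, beside 0.805% of all genes lower), and in OBS30 1 rose and 6 fell (5.88% and 35.3%, beside 4.73% and 3.7%). The uptake receptor gene cd36 had 55.5, 46.1 and 51.1 TPM in control, 38.0, 38.4 and 39.3 in PFOS20, 26.5, 35.1 and 24.6 in OBS20, and 18.5, 16.2 and 16.7 in OBS30. It fell by 1.52 ± 0.13 in OBS30 (adjusted p = 6.2e-05) and by 0.82 ± 0.13 in OBS20 (adjusted p = 0.011). Without OBS20 replicate 3 the OBS20 change was -0.72 ± 0.13 (adjusted p = 0.025). The OBS20 call on cd36 was lost without control replicate 2 or OBS20 replicate 1 (up to 0.059). It was also lost in a fit of only the 6 libraries and with the replicate number as a block (up to 0.14). Of the activation genes, the synthetase gene acsl5 had 21.3, 13.6 and 16.4 TPM in control, 15.2, 13.1 and 14.1 in PFOS20, 7.61, 9.56 and 6.26 in OBS20, and 7.64, 4.93 and 7.10 in OBS30. It fell by 1.26 ± 0.20 in OBS30 (adjusted p = 0.003) and by 1.03 ± 0.20 in OBS20 (adjusted p = 0.031). The OBS20 call was lost without control replicates 2 or 4, PFOS20 replicate 3, OBS20 replicates 1 or 3, or OBS30 replicate 4. The adjusted p was 0.072 without OBS20 replicate 3, and up to 0.12 in these runs. That call was also lost after median-of-ratios scaling and in a fit of only the 6 libraries (up to 0.17).

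Of the fatty acid binding protein genes, fabp11b had 18.4, 12.1 and 22.2 TPM in control and 7.76, 5.22 and 2.54 in OBS30, and fell by 1.64 ± 0.31 there (adjusted p = 0.0077). The brain-type gene fabp7b had 10.9, 9.32 and 11.8 TPM in control and 3.87, 3.61 and 5.27 in PFOS20, and fell by 1.16 ± 0.24 there (adjusted p = 0.0087), where 8 of 9 neuron markers fell too, a move whose part in fabp7b was not tested. Named after its values were seen, the heart-type gene fabp3 had 497, 480 and 496 TPM in control and 729, 775 and 759 in PFOS20, and rose by 0.62 ± 0.052 (adjusted p = 6.3e-05). The 10 enterocyte markers, whose sum was 1591 to 1994 TPM in control and 682 to 825 in OBS30, had 7 members lower in OBS30, 2 in OBS20 and 1 in PFOS20. Of all genes, 3.7%, 0.805% and 11.9% were lower in these groups. Enterocytes take up fatty acids, and the part of these markers in the values of cd36, acsl5 and fabp11b was not tested.

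The pyruvate dehydrogenase kinase gene pdk4, a PPAR target in mammals, had 18.3, 14.1 and 15.4 TPM in control, 28.7, 34.0 and 35.3 in PFOS20, 19.7, 25.7 and 11.99 in OBS20, and 31.0, 37.1 and 38.3 in OBS30. Like pdk2b it was above control in every PFOS20 and OBS30 library. In OBS20 its replicates 1 and 2 lay above control and its replicate 3 below, unlike those of pdk2b, which lay within the control range. The gene pdk4 rose by 0.99 ± 0.22 in PFOS20 (adjusted p = 0.012) and by 1.11 ± 0.22 in OBS30 (adjusted p = 0.012), the latter call lost without control replicate 3 or OBS30 replicate 4 (up to 0.051). The lipid droplet coat gene plin2, a common PPAR marker in mammals, had 4.48, 2.95 and 2.15 TPM in control, 4.20, 6.11 and 4.22 in PFOS20, 3.37, 3.21 and 1.90 in OBS20, and 6.11, 5.11 and 4.54 in OBS30, with changes of 0.50, -0.12 and 0.61 that did not pass (adjusted p = 0.18, 0.91 and 0.17), the OBS20 value being 0.070 without OBS20 replicate 3.

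**Figure D5:**
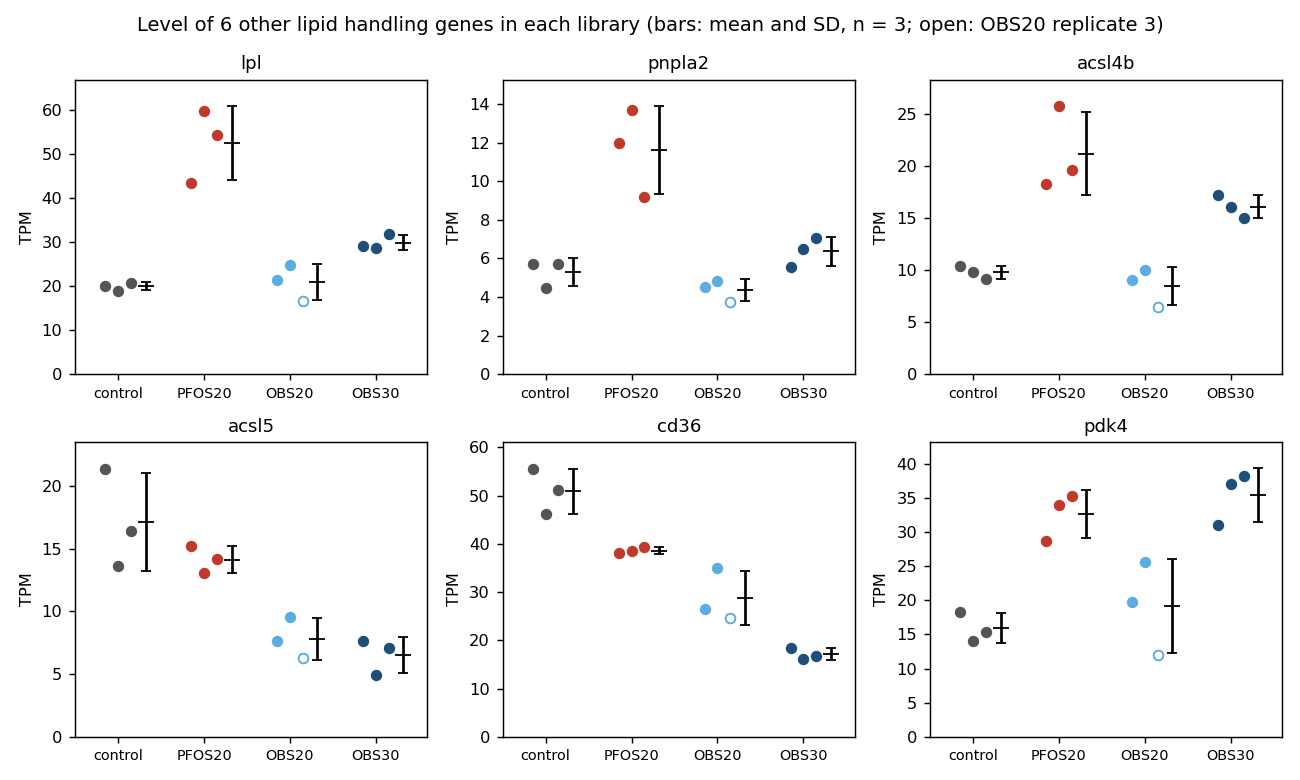
TPM of lpl, pnpla2, acsl4b, acsl5, cd36 and pdk4 in each library (points) with the mean and SD of each group of 3 (bars), with OBS20 replicate 3 as an open point. The genes lpl, pnpla2 and acsl4b were highest in PFOS20, cd36 and acsl5 were lowest in OBS30, and pdk4 was above control in every PFOS20 and OBS30 library.

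Of 20 further peroxisome genes, all tested, 0 rose and 4 fell in OBS30, 0 rose and 1, cat, fell in PFOS20, and 0 rose and 1, scp2a, fell in OBS20. The shares lower were 20%, 5% and 5%, beside 3.7%, 11.9% and 0.805% of all genes. Of all genes, 4.73%, 6.35% and 0.681% were higher. Those that fell in OBS30 included scp2a, cat and phyh, named after their values were seen. The sterol carrier gene scp2a, whose product also has a peroxisomal thiolase form, had 89.8, 79.1 and 74.2 TPM in control and 44.3, 41.6 and 41.8 in OBS30, and fell by 0.91 ± 0.12 (adjusted p = 8.4e-04). Its call in OBS20, a fall of 0.57 ± 0.12 (adjusted p = 0.042), was lost when any library but PFOS20 replicate 4 or OBS20 replicate 2 was left out. The adjusted p was 0.074 without OBS20 replicate 3, and up to 0.17 in these runs. This call was also lost after median-of-ratios scaling, with the replicate block and in a fit of only the 6 libraries (up to 0.22). The catalase gene cat, which breaks down the peroxide made by the oxidases, fell by 0.52 ± 0.13 in OBS30 (adjusted p = 0.032) and phyh, for α-oxidation of phytanic acid, by 0.46 ± 0.11 (adjusted p = 0.025). These calls were lost without any control library or OBS30 replicates 3 or 4, and that on phyh also without OBS30 replicate 1 (adjusted p up to 0.13 and 0.089). With the replicate number as a block both were lost, and that on cat also after median-of-ratios scaling and in a fit of only the 6 libraries. The fall of cat in PFOS20 was 0.41 ± 0.13 (adjusted p = 0.048), a call lost without any control library, PFOS20 replicates 2 or 3, OBS20 replicate 1, or OBS30 replicates 3 or 4 (up to 0.16) and after median-of-ratios scaling (0.33). It was also lost under quantile normalisation, without the filter on TPM and with the replicate number as a block.

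Markers of some other tissues moved too. The 8 markers of the yolk syncytial layer and lipoprotein secretion had 2, 5 and 7 members lower in PFOS20, OBS20 and OBS30, beside 11.9%, 0.805% and 3.7% of all genes. Their sums were 7250 to 9098 TPM in control, 6252 to 6352 in PFOS20, 5056 to 5513 in OBS20 and 4210 to 4813 in OBS30. Of 16 skeletal muscle markers, 3 rose and 2 fell in PFOS20, 2 rose and 0 fell in OBS20, and 4 rose and 1 fell in OBS30. Of all genes, 6.35%, 0.681% and 4.73% rose in these groups. The muscle sum was 63522 to 72597 TPM in PFOS20, 75827 to 92570 in OBS20 and 75458 to 82667 in OBS30, against 73264 to 77892 in control. Of 9 neuron markers, 8 fell in PFOS20, 0 in OBS20 and 1 in OBS30, and 0 rose. None of 6 ionocyte markers was called in any exposure. Of 6 kidney tubule markers, 0 were called in PFOS20, 1 fell in OBS20, and 1 rose and 1 fell in OBS30. Of 7 heart muscle markers tested, 2 rose in PFOS20 and 2 in OBS30, and 0 fell. Of 4 neutrophil markers tested, 2 rose and 1 fell in PFOS20, and 1 rose in OBS30. Of 3 macrophage markers tested, 1 rose in PFOS20, 1 fell in OBS20 and 1 rose in OBS30. No marker of these lists was at 0 in all libraries, and their part in the oxidation and PPAR gene values was not tested.

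Without a strand mark in the library kit, reads of overlapping genes cannot be told apart. In the RefSeq annotation of GRCz12tu, an assembly other than that of the files, 15 of the 40 genes overlap another gene, among them ehhadh, acaa2, angptl4 and pdk2b, so their levels may hold reads of the overlapping gene. The paralogs acsl1a and acsl1b, cpt1aa and cpt1ab, and hadhaa and hadhab may share reads, and how such reads were divided is not given in the sources used here.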

How the data were processed

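Poly(A) RNA-seq of 12 libraries was deposited by the authors as TPM for genes and loci of GRCz11. The submitters' processing notes name HISAT2, StringTie and RSEM without versions or roles. Symbols and identifiers were taken from the deposited table, whose group means were not used. No counts were used, so depth is unknown and no counting interval is given.

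Genes that reached 1 TPM in 3 or more of the 12 libraries were tested on log2(TPM + 1) with limma 3.58.1 (R 4.3.3), in 1 model of all groups without a replicate block, with eBayes and a mean-variance trend. Of the 5 contrasts, 3 share the controls. Tests were two-sided and adjusted by Benjamini-Hochberg over all genes tested. The members, lists and alternatives were chosen with earlier results of these data known.

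Library values are given for called members and their paralogs. Other pathway genes are named where called with an absolute change of at least 1 (at most 4 per direction and contrast), plus 3 genes whatever their values (pdk4, plin2 and 1 not reported here), with exceptions stated. The script was tested on simulated data. Alternatives changed the pseudocount to 0.1, dropped the filter or raised it to a mean of 5 TPM, rescaled libraries by quantiles or median of ratios, added the replicate number as a block or array weights, fitted the 6 compared libraries alone, summed rows of equal symbol, or left out each library in turn.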

Additional observations from a re-analysis of the deposited data

How the results depend on the processing

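No change of direction past the threshold was seen under the 21 alternatives. Of 29 calls on the 39 genes over the 5 comparisons, 13 were kept with each library left out in turn. Under every alternative in which the gene was tested, 6 were kept. These 6 include the OBS30 calls on ehhadh and pparg, genes tested under 20 of the 21 alternatives. A mean of at least 5 TPM left both genes out. No counts were used, so the depth that limits low genes is unknown. With 3 libraries a group, most calls near the threshold were lost when 1 library was left out. Some were also lost without a library outside the comparison. Calls over all genes fell too, from 1947 higher in PFOS20 to between 1126 and 1560 without 1 control or PFOS20 library. The cause of such losses was not tested.

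With 1 library left out, the genes of the set called higher and lower were 3 to 12 and 1 to 3 in PFOS20 against control, 0 and 1 in OBS20, 3 to 4 and 2 to 7 in OBS30, 0 and 3 to 7 in OBS20 against PFOS20, and 0 to 1 and 0 in OBS30 against OBS20. The PFOS20 count higher was 3 or 4 without any one control or PFOS20 library, the OBS30 count lower 2 without OBS30 replicate 3 or 4, and the count of OBS20 lower than PFOS20 3 without PFOS20 replicate 3. Pathway genes called higher and lower were 5 to 12 and 4 to 17 in PFOS20, 0 and 0 to 4 in OBS20, 0 to 10 and 5 to 15 in OBS30, 1 to 5 and 4 to 9 in OBS20 against PFOS20, and 0 to 2 and 0 to 2 in OBS30 against OBS20. Of all genes, 3.67% to 9.22% were then higher and 6.27% to 19.2% lower in PFOS20. The shares were 0.323% to 0.985% and 0.401% to 0.769% in OBS20, and 2.8% to 7.62% and 2.01% to 5.3% in OBS30. They were 2.54% to 16.6% and 1.98% to 4.51% in OBS20 against PFOS20, and 0.333% to 0.985% and 0.124% to 0.408% in OBS30 against OBS20. The median change of the set ran from 0.073 to 0.12, -0.11 to 0.016, -0.13 to -0.061, -0.22 to -0.045 and -0.11 to 0.022 in these comparisons, in the same order.

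Counts that moved under other alternatives follow, and the cause was not tested except where stated. Under array weights the set had 7 lower in PFOS20, 1 higher and 2 lower in OBS20, 10 lower in OBS30, 1 higher and 12 lower in OBS20 against PFOS20, and 2 higher and 3 lower in OBS30 against OBS20 (median -0.084). The pathway genes then had 17 higher and 22 lower in PFOS20, 1 higher in OBS20, 10 higher in OBS30, 16 higher and 19 lower in OBS20 against PFOS20, and 4 higher and 6 lower in OBS30 against OBS20. Under these weights 14.5% of all genes were higher and 27.6% lower in PFOS20. The shares were 2.76% and 2.15% in OBS20, and 10.9% and 7.53% in OBS30. They were 26.7% and 10.9% in OBS20 against PFOS20, and 2.8% and 1.84% in OBS30 against OBS20. With median-of-ratios scaling the set had 1 lower in PFOS20 (median 0.23), 0 lower in OBS20, 1 higher in OBS30 and a median of -0.11 in OBS30 against OBS20. The pathway genes had 14 higher and 6 lower in PFOS20, 1 lower in OBS20, 8 lower in OBS30, 3 higher and 15 lower in OBS20 against PFOS20, and 3 higher and 1 lower in OBS30 against OBS20. With this scaling 11.4% of all genes were higher and 11.8% lower in PFOS20. The shares were 0.776% and 0.668% in OBS20, and 5.38% and 4.41% in OBS30. They were 8.0% and 6.81% in OBS20 against PFOS20, and 0.857% and 0.473% in OBS30 against OBS20. With quantile normalisation the set had 0 lower in PFOS20 and in OBS20, a median of -0.17 in OBS30, 12 lower in OBS20 against PFOS20, and 2 higher in OBS30 against OBS20 (median -0.12). The pathway genes had 13 higher in PFOS20, 3 higher and 15 lower in OBS20 against PFOS20, and 5 higher in OBS30 against OBS20. After quantile normalisation 12.4% of all genes were higher and 13.3% lower in PFOS20, and 0.831% were lower in OBS20. In OBS20 against PFOS20 the shares were 9.24% and 7.23%, and 1.47% were higher in OBS30 against OBS20. A fit of only the 6 libraries gave 0 lower in OBS20, 2 lower in OBS20 against PFOS20 and 0 higher in OBS30 against OBS20. For the pathway genes it gave 9 higher in PFOS20, 0 lower in OBS20, 11 higher in OBS30, 4 lower in OBS20 against PFOS20, and 0 higher and 1 lower in OBS30 against OBS20. In that fit 7.04% of all genes were higher in PFOS20, 0.176% lower in OBS20 and 6.55% higher in OBS30. The share lower in OBS20 against PFOS20 was 1.14%, and 0.225% were higher and 0.0619% lower in OBS30 against OBS20. A mean of at least 5 TPM left 0 lower in OBS20, since it removed ehhadh, with a median of -0.052 and 2 pathway genes higher in OBS30 against OBS20. Of all genes at that mean, 1.34% were lower in OBS20 and 2.76% higher in OBS30 against OBS20. A pseudocount of 0.1 gave 2 pathway genes higher in OBS20 against PFOS20, beside 6.05% of all genes.

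The labels do not say what a replicate number stands for. Over all genes tested, the correlations of same-numbered deviations were -0.115 to 0.101 over 11 pairs. Such correlations cannot show whether same-numbered libraries shared an origin that acted on some genes only. With the replicate block the set had 3 higher and 1 lower in PFOS20, 0 lower in OBS20, 1 lower in OBS30, and a median of -0.017 in OBS30 against OBS20. Of the 29 calls on the set, 16 were lost with the block. Losses with the block are not all named above, for the set or for the pathway genes. The pathway genes with the block had 5 lower in PFOS20, 1 higher and 1 lower in OBS20, 1 higher and 5 lower in OBS30, 5 lower in OBS20 against PFOS20, and 0 higher and 0 lower in OBS30 against OBS20. With the block 4.22% of all genes were higher and 7.63% lower in PFOS20. The shares were 0.222% and 0.222% in OBS20, and 2.15% and 1.6% in OBS30. They were 2.62% and 1.9% in OBS20 against PFOS20, and 0.352% and 0.0815% in OBS30 against OBS20.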
